A study of Mus musculus with 10 samples.

Results

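The matrix metalloproteinases (Mmp), the membrane-anchored ADAM proteinases (Adam), the secreted ADAMTS proteinases (Adamts), the ADAMTS-like proteins (Adamtsl) and their tissue inhibitors (Timp) were described in brown adipocytes treated with BML-260. Members were the rows of the deposited table whose symbol is one of these 5 names followed by a number, with a trailing letter allowed. This gave 60 of 24640 rows, made up of 22 Adam, 15 Adamts, 14 Mmp, 5 Adamtsl and 4 Timp genes. RNA was sequenced from mouse brown adipocytes of strain C57BL/6 in 5 groups of 2 libraries each, and no genotype other than the strain is given. Cells had received BML-260 (a small molecule marketed to block the phosphatase Dusp22) for 1 day or for 3 days. Others had received DMSO, the usual solvent of such compounds, for 1 day or for 3 days, and a last group had received ISO, listed at 1 day. The labels do not spell out ISO, give no doses, and do not say whether the libraries of a group came from separate cultures or animals, so that the p-values below measure only the spread between these libraries.

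Members of these families are zinc proteinases, or relatives of them, that cut the matrix around cells or cut proteins off the cell surface. Mmp enzymes are made as inactive precursors and opened by other proteinases, ADAM enzymes release growth factors and receptors from the membrane, and ADAMTS enzymes trim collagen precursors and large proteoglycans. Timp proteins bind the active site and block it, and in adipose tissue this balance is known for its part in remodelling the collagen network around fat cells as they differentiate and enlarge.

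Libraries held 16955918 to 21185675 counts, of which 0.110% to 0.176% fell on the 60 members. A total of 15212 genes had enough counts to be tested, among them 42 members (13 Adam, 12 Adamts, 10 Mmp, 4 Adamtsl and 3 Timp genes). Levels are given as CPM, a gene's counts scaled to a common library size. A member was said to have risen, fallen or changed where edgeR's quasi-likelihood test gave a Benjamini-Hochberg adjusted p under 0.05 over all tested genes. The 2 ISO libraries, listed at 1 day, lay on the side of the 3-day BML-260 and DMSO libraries on the first principal component of all genes, which held 41.3% of the variance, and away from the other 1-day libraries. ISO results are therefore also given against DMSO at 3 days. Brown adipocyte markers were present, with the sum of 10 markers between 6732 and 13484 CPM in all libraries. Fabp4 held most of this sum, with group means of 4339 to 10437 CPM, while those of Ucp1 were 5.58 to 31.8. With BML-260 at each time 4 of the 10 rose (Cidea, Elovl3, Fabp4 and Ucp1) and 3 fell (Adipoq, Pparg and Prdm16). Of all tested genes 9.32% and 17.3% rose and 8.62% and 18.3% fell. Among 6 endothelial markers Cdh5 and Emcn reached no more than 2 counts per library and the list summed to 0.897 to 2.09 CPM, and the 4 macrophage markers with a row summed to 6.65 to 10.5 CPM. The 1 skeletal muscle marker with a row had at most 1 count.

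Markers of preadipocytes and fibroblasts, which share a dish with adipocytes in primary cultures, differed between the groups. All 10 had a row and none was at 0 throughout, though Cd34 had at most 7 counts in a library. Their sum was 128 to 139 CPM with DMSO at 1 day, 96.4 to 102 with BML-260 at 1 day, 191 to 214 with ISO, 213 to 232 with DMSO at 3 days and 147 to 148 with BML-260 at 3 days. Of 9 tested, 4 fell with BML-260 at 1 day and 5 at 3 days, where 8.62% and 18.3% of all tested genes fell, and none rose. With ISO 7 rose and in DMSO with time 6 rose, where 21.4% and 18.1% of all genes rose, and none fell. The sum of 9 smooth muscle and pericyte markers was 444 to 445 CPM with DMSO and 321 to 336 with BML-260 at 1 day, 478 to 493 and 304 to 337 at 3 days, and 419 to 460 with ISO. In bulk RNA, fewer cells of a type and less RNA per cell cannot be told apart, and the part of these markers in the results below was not tested.

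Within each family a few genes held most of the RNA. Per kilobase of merged exon length, the highest level over all libraries was 63.0 CPM for Mmp11, 39.8 for Adam9, 21.3 for Timp1, 18.4 for Adamts1 and 2.36 for Adamtsl5. Timp2, at 21.1 CPM per kilobase, differed little from Timp1, while Timp3 stood at 1.15. A mean of at least 10 CPM was reached by 25 members, another 9 lay between 1 and 10 CPM, and 8 tested members lay below 1 CPM, where 1 count was worth 0.0478 to 0.0598 CPM. The 18 untested members had no more than 14 counts per library, a number reached by Adamts3. They comprised Timp4, Mmp12, Mmp16, Mmp21, Mmp25, Adamts3, Adamts13, Adamts17, Adamtsl2 and 9 Adam genes (Adam2, Adam3, Adam4, Adam5, Adam20, Adam21, Adam28, Adam32 and Adam39), several of which are known mainly from the testis.

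BML-260 was followed by lower levels of a large share of the families at both times. At 1 day 19 of 42 tested members fell and 1 rose, a called share of 47.6%, where 17.9% of all tested genes were called (9.32% higher and 8.62% lower). At 3 days 23 fell and 3 rose, a called share of 61.9%, where 35.5% of all genes were called (17.3% higher and 18.3% lower). The median log2 fold change of the 42 was -0.35 at 1 day and -0.41 at 3 days, against -0.001 and -0.016 over all genes. All 3 tested Timp genes fell at both times, as did 3 and then 2 of 4 Adamtsl genes, 7 and then 10 of 12 Adamts genes, 2 and then 4 of 10 Mmp genes and 4 of 13 Adam genes at either time.

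**Figure D1:**
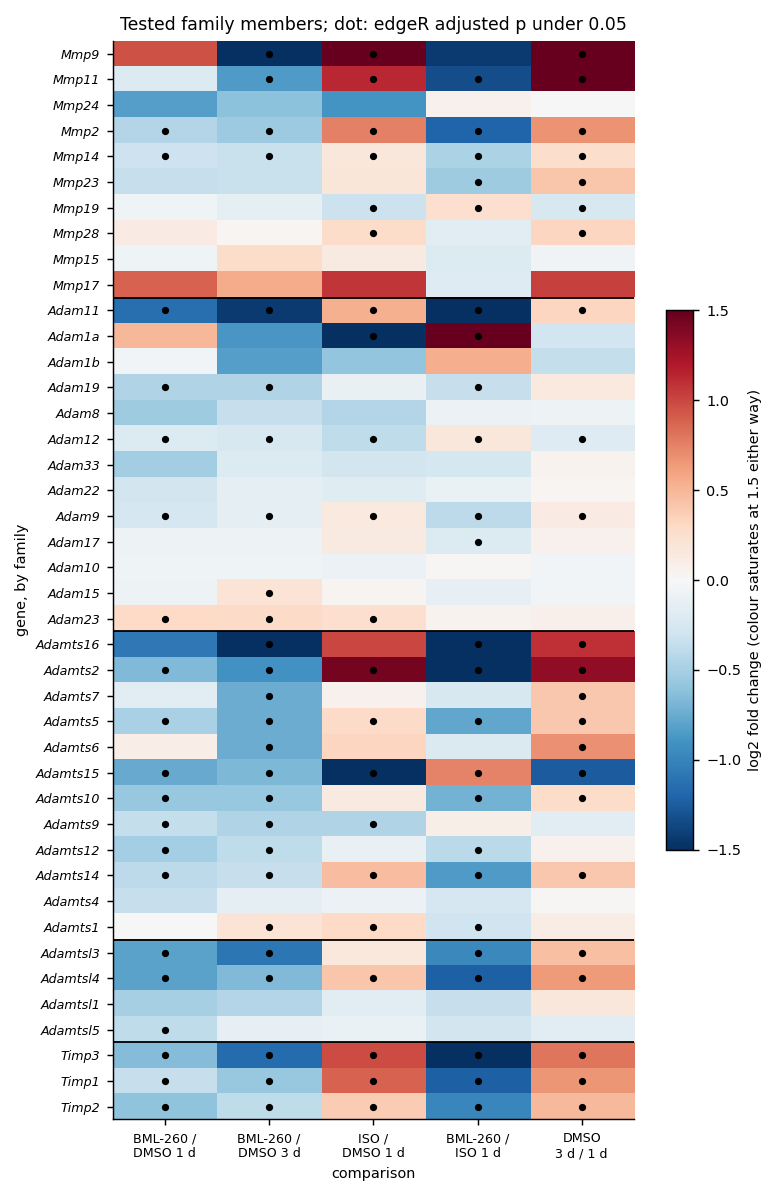
Log2 fold change of the tested members (rows, by family) in 5 comparisons (columns), with the colour scale in log2 units and marked cells called at an adjusted p under 0.05. Called members were mostly lower with BML-260 against DMSO, 19 of 20 at 1 day and 23 of 26 at 3 days, and mostly higher in DMSO over time, 20 of 23.

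The 3 tested inhibitors were low in every BML-260 library relative to DMSO of the same day. Timp1, a secreted inhibitor of most matrix metalloproteinases that acts poorly on the membrane-type ones, measured 14.9 and 15.2 CPM with DMSO, 11.2 and 12.4 with BML-260 and 27.8 and 27.6 with ISO at 1 day. The 3-day libraries held 24.2 and 23.6 CPM with DMSO and 15.4 and 16.8 with BML-260. The groups did not overlap, and the log2 fold change with BML-260 was -0.35 ± 0.10 (SE) at 1 day (adjusted p = 0.014, edgeR, 2 libraries a group) and -0.57 ± 0.09 at 3 days (adjusted p = 8.6e-06). The 1-day call was lost without replicate 1 of BML-260 (-0.28, adjusted p = 0.15), without replicate 2 of DMSO (-0.34, adjusted p = 0.099) and with DESeq2 (adjusted p = 0.057).

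Timp2, which besides inhibiting is needed to bring pro-Mmp2 to Mmp14 for activation, was the most counted inhibitor. At 1 day it measured 73.4 and 77.6 CPM with DMSO, 50.7 and 49.1 with BML-260 and 102 and 95.1 with ISO. At 3 days it stood at 102 and 109 CPM with DMSO and 77.6 and 85.0 with BML-260, again without overlap. It fell by 0.60 ± 0.06 (SE) on the log2 scale at 1 day (adjusted p = 8.6e-08) and by 0.38 ± 0.06 at 3 days (adjusted p = 5.9e-06). Timp3, the matrix-bound inhibitor that also blocks Adam17 and the aggrecan-cleaving ADAMTS enzymes, measured 7.39 and 7.89 CPM with DMSO, 4.94 and 4.80 with BML-260 and 16.4 and 14 with ISO at 1 day. At 3 days the DMSO libraries held 14 and 12.6 CPM and the BML-260 libraries 6.14 and 5.79. Timp3 fell by 0.65 ± 0.15 (SE) at 1 day (adjusted p = 0.0025) and by 1.16 ± 0.13 at 3 days (adjusted p = 5.7e-08), the deepest fold change of the 3 inhibitors at 3 days. Of its exon length, 21.3% is shared with Syn3, which stayed at or under 1.08 CPM in every library. Timp4, the inhibitor best known from heart and fat, had 1 to 8 counts in every library and was not tested.

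**Figure D2:**
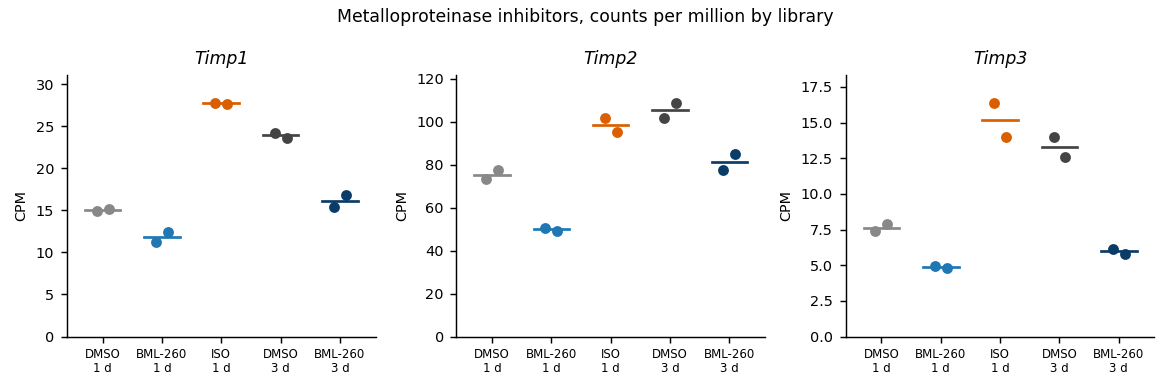
Level of Timp1, Timp2 and Timp3 (y axis, CPM, linear from 0) in the 2 libraries of each group (x axis, points), with the group mean as a line. In each panel both BML-260 libraries lie below both DMSO libraries of the same day, for Timp3 at 4.94 and 4.80 against 7.39 and 7.89 CPM at 1 day.

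Because the 3 inhibitors fell together, the 250 bases before their RefSeq starts were searched for 4 motifs on both strands: TGANTCA (the AP-1 site), TGACG (the core of the cyclic AMP response element), GGGCGG (the Sp1 box) and TATAAA. RefSeq promoters of build GRCm38.p6 were found for 36 members, 26 of them tested, with 29 promoters between those 26. GGGCGG was present in 19 of the 29 (65.5%), among them all 3 Timp genes, Mmp11 and Mmp14, and in 57.1% of the promoters of all tested genes. TGACG was present in 6 of 29 (20.7%, against 26.3%), TGANTCA in 1 (Adam19, 3.45% against 4.59%) and TATAAA in 1 (Adamts1, 3.45% against 6.4%). The shares of the members and of all tested genes are descriptions, and a match is not a binding site. The window of Timp1, chrX:20869916-20870165 on the plus strand, and that of Mmp11, chr10:75932503-75932752 on the minus strand, lie in no annotated GENCODE exon, the first inside the gene Syn1 and the second inside the annotated span of Mmp11 itself, before its RefSeq start, and are shown 5' to 3' with motif matches in capitals: TGACG and the reverse complement of GGGCGG in Timp1, and GGGCGG at 2 places in Mmp11.
Timp1: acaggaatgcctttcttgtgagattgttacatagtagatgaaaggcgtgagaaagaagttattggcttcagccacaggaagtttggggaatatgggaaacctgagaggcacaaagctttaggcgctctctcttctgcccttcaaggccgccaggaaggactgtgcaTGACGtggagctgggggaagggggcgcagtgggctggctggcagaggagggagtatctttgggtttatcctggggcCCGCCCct
Mmp11: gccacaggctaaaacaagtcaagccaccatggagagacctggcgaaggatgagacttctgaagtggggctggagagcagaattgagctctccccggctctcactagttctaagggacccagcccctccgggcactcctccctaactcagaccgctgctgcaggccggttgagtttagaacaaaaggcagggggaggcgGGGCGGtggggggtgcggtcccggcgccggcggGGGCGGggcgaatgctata

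Among the matrix metalloproteinases Mmp2 and its activator Mmp14 fell at both times, and the other 8 tested members fell at 3 days only or did not pass the test. Mmp2 (gelatinase A), which cuts denatured collagen and basement membrane, measured 25.3 and 25.7 CPM with DMSO, 19.2 and 18.3 with BML-260 and 47.1 and 39.4 with ISO at 1 day. After 3 days Mmp2 stood at 38.5 and 42.6 CPM with DMSO and 26.6 and 28.7 with BML-260. It fell by 0.44 ± 0.09 (SE) on the log2 scale at 1 day (adjusted p = 0.0012, edgeR) and by 0.55 ± 0.08 at 3 days (adjusted p = 5.2e-06), with no overlap between groups. Mmp14, the membrane-type collagenase that activates pro-Mmp2 and that mouse fat pads need to grow, measured 77.5 and 86.2 CPM with DMSO, 66.3 and 66.4 with BML-260 and 99.4 and 85.2 with ISO at 1 day. At 3 days the values were 95.4 and 102 CPM with DMSO and 79.4 and 77.5 with BML-260. Its fold changes of -0.31 ± 0.07 at 1 day (adjusted p = 0.0015) and -0.33 ± 0.06 at 3 days (adjusted p = 0.00016) were close to each other, and the 1-day call was lost without replicate 2 of DMSO (-0.23, adjusted p = 0.073).

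Mmp11 (stromelysin-3), which is opened inside the cell by furin and is known from stromal cells of remodelling tissue, had the highest level per kilobase of all members and the smallest p of all members over time in DMSO. It measured 84.1 and 97.2 CPM with DMSO, 73.7 and 84.3 with BML-260 and 207 and 191 with ISO at 1 day, and the first 2 of these groups overlapped. At 3 days it measured 297 and 354 CPM with DMSO and 164 and 198 with BML-260, so that the treated libraries lay below both controls. The log2 fold change was -0.20 ± 0.09 (SE, adjusted p = 0.13, edgeR) at 1 day and -0.85 ± 0.08 (adjusted p = 1.9e-09) at 3 days. The 1-day value passed the test when no low counts were filtered (adjusted p = 0.034), when only the groups compared were fitted (adjusted p = 0.042) and with a replicate block (adjusted p = 0.046). Of the Mmp11 exon length 5.58% is shared with Chchd10, a mitochondrial protein gene, whose level was 342 to 646 CPM and rose with BML-260 by 0.47 at 1 day and 0.74 at 3 days on the log2 scale. The sources used here do not say whether counting used strand.

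Of the remaining Mmp genes Mmp9, at 3 days, was the one called with BML-260. Mmp9 (gelatinase B), which the rule for named members left out and which was added after its values were seen, was near the floor at 0.175 and 0.0537 CPM with DMSO, 0.294 and 0.158 with BML-260 and 0.479 and 0.716 with ISO at 1 day. At 3 days it was at 0.610 and 0.773 CPM with DMSO and 0.0548 and 0.403 with BML-260. The 3-day call (-1.53 ± 0.58, adjusted p = 0.043) rested on single libraries: it was -3.50 (adjusted p = 0.013) without replicate 2 of BML-260, -0.77 (adjusted p = 0.39) without replicate 1 of BML-260, -1.66 (adjusted p = 0.092) without replicate 1 of DMSO and -1.32 (adjusted p = 0.22) without replicate 2 of DMSO. Mmp19, which cuts basement membrane proteins, had 54.8 and 52.5 CPM with DMSO, 50.3 and 51.8 with BML-260 and 44.8 and 41.2 with ISO at 1 day, then 45.4 and 45.5 with DMSO and 40.9 and 42.0 with BML-260 at 3 days. Its BML-260 fold changes were -0.07 (95% interval -0.19 to 0.05) and -0.13 (-0.26 to -0.01). They did not pass the adjusted test, except at 3 days with upper-quartile scaling (adjusted p = 0.035). Of the Mmp19 exon length 28.3% is shared with Gm47093 and Tmem198b. Tmem198b, at 14.3 to 19.8 CPM, fell with BML-260 at 3 days (-0.27, adjusted p = 0.034, edgeR). Mmp28 (epilysin) had 24.6 and 25.9 CPM with DMSO, 26.3 and 28.6 with BML-260 and 31.8 and 29.8 with ISO at 1 day, then 30.5 and 32.8 with DMSO and 32.0 and 32.8 with BML-260 at 3 days. It was not called at 0.12 (95% interval -0.04 to 0.28) and 0.03 (-0.11 to 0.18). Among the other membrane-type genes Mmp15 was not called (-0.07, interval -0.40 to 0.25, and 0.28, interval -0.02 to 0.59), and neither were Mmp17 and Mmp24, which lay below 1 CPM. Mmp23 had log2 fold changes of -0.35 and -0.33, neither called.

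**Figure D3:**
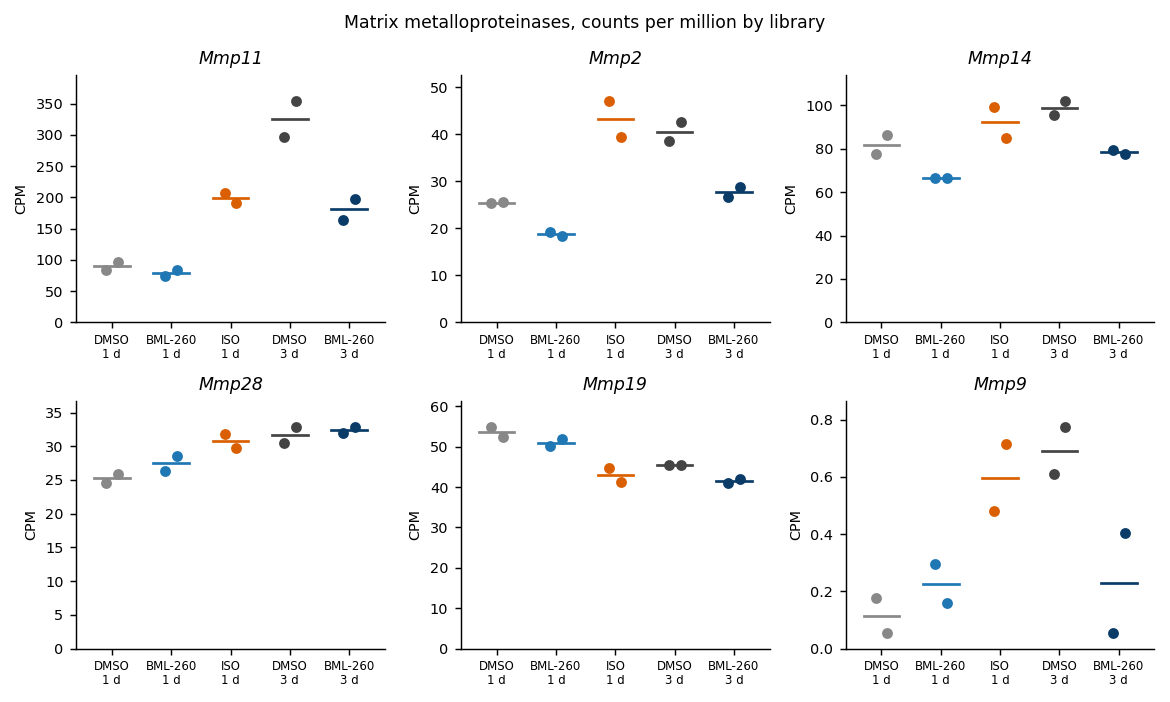
Level of 6 Mmp genes (y axis, CPM, linear from 0, own scale per panel) in the 2 libraries of each group (x axis, points), with the group mean as a line. Mmp11 rises from 84.1 and 97.2 CPM in DMSO at 1 day to 297 and 354 at 3 days, and the BML-260 libraries reach 164 and 198 at 3 days.

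Among the Adam genes called with BML-260 against DMSO, the largest fold change was in a member without proteinase activity. Adam11 (chr11:102761439-102780262 on the plus strand of GRCm38), which like Adam22 and Adam23 lacks the zinc-binding catalytic site and is known from the nervous system, measured 26.8 and 31.0 CPM with DMSO, 13.0 and 13.4 with BML-260 and 41.1 and 42.8 with ISO at 1 day. By 3 days it had reached 37.2 and 35.4 CPM with DMSO and 12.4 and 14.5 with BML-260. All 4 BML-260 libraries thus lay below all 6 others. Adam11 fell by 1.13 ± 0.09 (SE) on the log2 scale at 1 day (adjusted p = 2.4e-09, edgeR) and by 1.43 ± 0.09 at 3 days (adjusted p = 1.8e-12), the smallest adjusted p of any member in both comparisons. Adam23, a related surface protein that binds the secreted protein Lgi1 in brain, went the other way, with 50 and 48.3 CPM with DMSO, 62.3 and 58.7 with BML-260 and 60.8 and 56.1 with ISO at 1 day, and 51.3 and 52.2 with DMSO and 62.0 and 64.4 with BML-260 at 3 days. It rose by 0.30 ± 0.06 at 1 day (adjusted p = 0.00071) and by 0.29 ± 0.06 at 3 days (adjusted p = 0.00031), and was the only member called higher at both times.

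The 2 main sheddases did not pass the test with BML-260 against DMSO. Adam10, which cuts Notch receptors, had log2 fold changes of -0.07 at 1 day (95% interval -0.18 to 0.05) and -0.07 at 3 days (-0.18 to 0.05), at levels of 77.3 to 91.5 CPM over all 10 libraries. Adam17, which releases tumour necrosis factor and ligands of the epidermal growth factor receptor, had -0.08 (-0.20 to 0.03) and -0.08 (-0.19 to 0.03), at 79.8 to 101 CPM. Against ISO at 1 day Adam17 was lower with BML-260 (-0.21 ± 0.05, adjusted p = 0.0022, edgeR). Its ISO value against DMSO at 1 day (0.13, adjusted p = 0.053) passed with relative log expression factors (adjusted p = 0.047) and with a replicate block (adjusted p = 0.049). That of Adam10 (-0.09) passed with upper-quartile scaling (-0.14, adjusted p = 0.048).

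Of the other catalytic ADAM genes 3 fell by small amounts. Adam9, with broad shedding activity and the highest level of the family, had 165 and 160 CPM with DMSO, 142 and 133 with BML-260 and 181 and 179 with ISO at 1 day, then 178 and 176 with DMSO and 165 and 160 with BML-260 at 3 days. Its fold change was -0.25 ± 0.05 at 1 day (adjusted p = 0.00052) and -0.13 ± 0.05 at 3 days (adjusted p = 0.033). The 3-day call was lost without any single one of the 4 libraries (-0.09 to -0.15, adjusted p 0.064 to 0.30), with DESeq2 (adjusted p = 0.12), with relative log expression factors (adjusted p = 0.067) and without the filter on low counts (adjusted p = 0.053). Adam19, known from heart development and neuregulin processing, had 18.7 and 21.0 CPM with DMSO, 14.9 and 14.2 with BML-260 and 19 and 18.1 with ISO at 1 day, then 24.0 and 20.2 with DMSO and 16.1 and 16.2 with BML-260 at 3 days. It fell by 0.45 ± 0.10 and by 0.45 ± 0.09 (adjusted p = 0.002 and 0.00051), but was not called at 1 day without replicate 2 of DMSO (-0.37, adjusted p = 0.068) or at 3 days without replicate 1 of DMSO (-0.29, adjusted p = 0.059).

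Adam12, which is made by fat cell precursors in mice, had 74.1 and 70.7 CPM with DMSO, 62.9 and 62.3 with BML-260 and 58.2 and 53.2 with ISO at 1 day, then 60.1 and 66.6 with DMSO and 52.6 and 54.8 with BML-260 at 3 days. It fell by 0.21 ± 0.06 (adjusted p = 0.014) and by 0.24 ± 0.06 (adjusted p = 0.0031). The 1-day call was lost with DESeq2 (adjusted p = 0.056) and without replicate 1 (-0.22, adjusted p = 0.055) or 2 of BML-260 (-0.20, adjusted p = 0.091) or replicate 1 of DMSO (-0.17, adjusted p = 0.11), and the 3-day call without replicate 2 of DMSO (-0.13, adjusted p = 0.19). Adam15, found on endothelial and smooth muscle cells, had 82.5 and 92.6 CPM with DMSO, 83.3 and 82.7 with BML-260 and 93.2 and 87.3 with ISO at 1 day, then 87.0 and 82.9 with DMSO and 97.8 and 97.6 with BML-260 at 3 days. It was not called at 1 day (-0.08, interval -0.19 to 0.04) and rose by 0.20 ± 0.05 at 3 days (adjusted p = 0.0052). Of the Adam15 exon length 20.6% is shared with the gene 4731419I09Rik. Adam1a had 0.873 and 1.13 CPM with DMSO, 1.59 and 1.27 with BML-260 and 0.299 and 0.0955 with ISO at 1 day, then 0.814 and 0.825 with DMSO and 0.439 and 0.453 with BML-260 at 3 days. It was not called with BML-260, and 63.7% of its exon length is shared with neighbouring genes, among them Mapkapk5 at 42.8 to 59.6 CPM. The other tested Adam genes, Adam1b, Adam8, Adam22 and Adam33, lay at or under 1.93 CPM in every library and were called in none of the 6 comparisons.

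**Figure D4:**
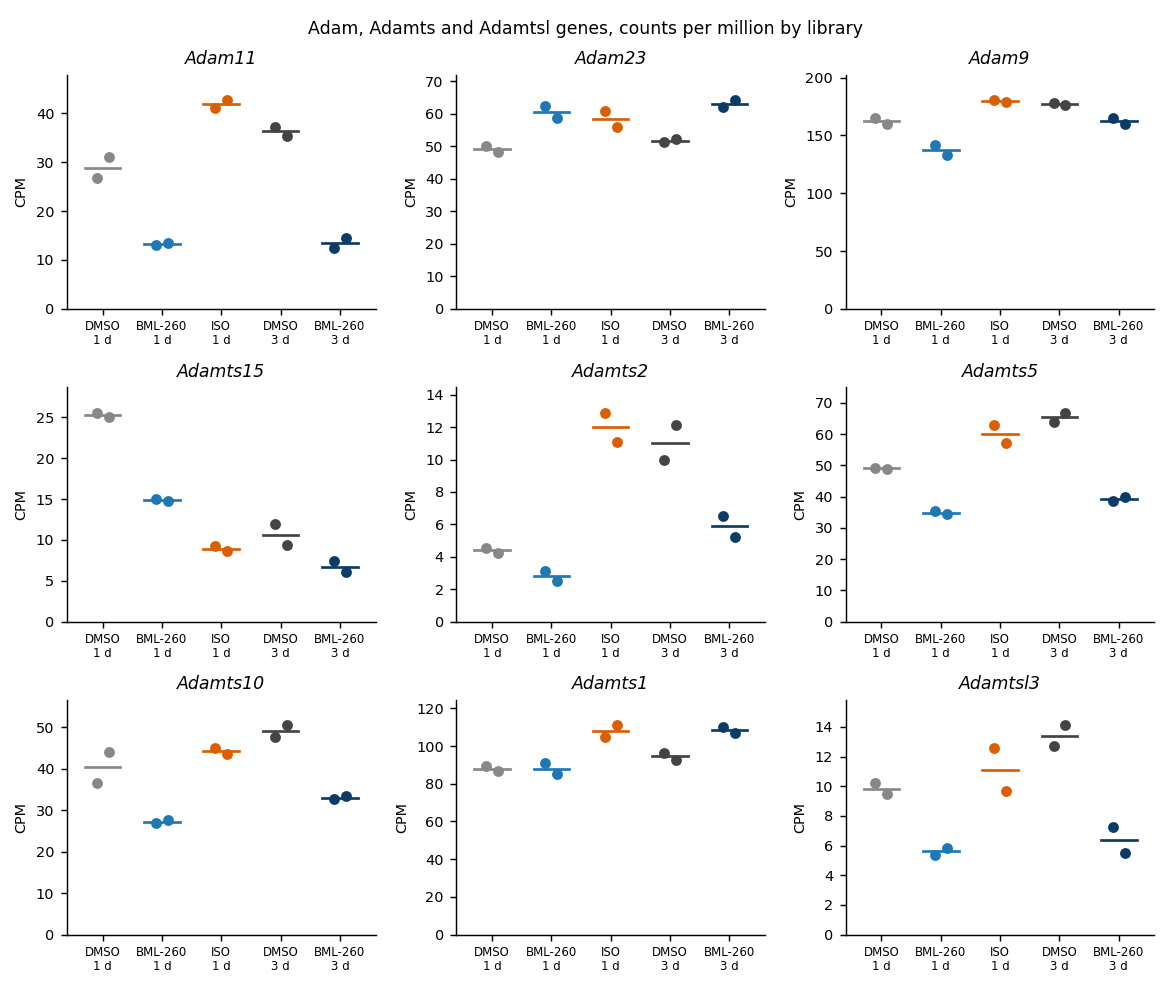
Level of 9 Adam, Adamts and Adamtsl genes (y axis, CPM, linear from 0, own scale per panel) in the 2 libraries of each group (x axis, points), with the group mean as a line. Adam11 lies at 12.4 to 14.5 CPM in the 4 BML-260 libraries and at 26.8 CPM or more in the other 6.

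At 3 days every tested functional group of the ADAMTS genes held a member that fell. Both tested procollagen N-propeptidases, which remove the amino end of fibrillar procollagens so that fibrils can form, were called at both times. Adamts2 had 4.54 and 4.24 CPM with DMSO, 3.11 and 2.48 with BML-260 and 12.9 and 11.1 with ISO at 1 day, then 9.97 and 12.1 with DMSO and 6.53 and 5.23 with BML-260 at 3 days. It fell by 0.66 ± 0.20 at 1 day (adjusted p = 0.025) and by 0.91 ± 0.14 at 3 days (adjusted p = 1.7e-05). Adamts14 had 9.49 and 10.8 CPM with DMSO, 8.40 and 7.13 with BML-260 and 14.7 and 13.3 with ISO at 1 day, then 13.1 and 13.7 with DMSO and 10.1 and 10.9 with BML-260 at 3 days. Its falls of 0.39 ± 0.13 and 0.35 ± 0.11 (adjusted p = 0.032 and 0.017) were weaker. The 1-day call of Adamts2 was lost with DESeq2 (adjusted p = 0.053) and without replicate 2 of BML-260 (-0.49, adjusted p = 0.22), replicate 1 of DMSO (-0.61, adjusted p = 0.11) or replicate 2 of DMSO (-0.71, adjusted p = 0.087). Adamts14 was not called with DESeq2 (adjusted p = 0.11 and 0.10), at 1 day without replicate 2 of BML-260 (-0.27, adjusted p = 0.31) or of DMSO (-0.30, adjusted p = 0.29), or at 3 days without replicate 1 of BML-260 (-0.30, adjusted p = 0.12) or replicate 1 or 2 of DMSO (-0.35 and -0.29, adjusted p = 0.068 and 0.14).

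Of the 5 tested proteoglycan-cleaving members, 3 fell at both times. Adamts5, the main aggrecan-cleaving enzyme of mouse cartilage, had 49.3 and 48.8 CPM with DMSO, 35.4 and 34.4 with BML-260 and 63.0 and 57.3 with ISO at 1 day. At 3 days it had 63.8 and 66.9 CPM with DMSO and 38.7 and 39.8 with BML-260. Both treated groups lay well below their controls, with falls of 0.49 ± 0.06 (SE, adjusted p = 3.9e-06) and 0.74 ± 0.06 (adjusted p = 3.5e-10). Adamts15, which cleaves versican in mouse muscle, had 25.6 and 25.1 CPM with DMSO, 15 and 14.8 with BML-260 and 9.27 and 8.64 with ISO at 1 day, then 12 and 9.33 with DMSO and 7.40 and 6.04 with BML-260 at 3 days. It fell by 0.76 ± 0.10 (adjusted p = 5e-06) and 0.67 ± 0.13 (adjusted p = 0.00026). Adamts9, which cleaves versican and acts in secretion, had 20 and 17.6 CPM with DMSO, 13.7 and 15.5 with BML-260 and 13.9 and 13.7 with ISO at 1 day, then 15.8 and 17.5 with DMSO and 12.1 and 12.2 with BML-260 at 3 days. It fell by 0.36 ± 0.10 (adjusted p = 0.012) and 0.45 ± 0.10 (adjusted p = 0.001), with the 1-day call lost with DESeq2 (adjusted p = 0.059) and without replicate 1 of BML-260 (-0.28, adjusted p = 0.14) or of DMSO (-0.27, adjusted p = 0.14).

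The other 2 proteoglycanases did not fall. Adamts1, the member of highest level per kilobase in its family, which cleaves versican in the ovary, had 89.2 and 86.6 CPM with DMSO, 91.0 and 85.1 with BML-260 and 105 and 111 with ISO at 1 day, then 96.5 and 92.7 with DMSO and 110 and 107 with BML-260 at 3 days. The 1-day groups overlapped, with a log2 fold change of 0 (95% interval -0.11 to 0.11), and at 3 days Adamts1 rose by 0.20 ± 0.05 (adjusted p = 0.0031). Adamts4, an aggrecan-cleaving enzyme induced in inflammation, had -0.34 (interval -0.61 to -0.08, adjusted p = 0.068) and -0.14 (-0.39 to 0.11), and its 1-day value passed only without the filter on low counts (adjusted p = 0.043).

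Of the microfibril-associated enzymes, Adamts10 was called at both times and Adamts6 at 3 days only. Adamts10, which binds fibrillin-1 and is mutated in Weill-Marchesani syndrome in humans, had 36.6 and 43.9 CPM with DMSO, 26.8 and 27.5 with BML-260 and 45.0 and 43.6 with ISO at 1 day, then 47.5 and 50.4 with DMSO and 32.6 and 33.3 with BML-260 at 3 days. It fell by 0.57 at both times (SE 0.08 and 0.07, adjusted p = 5.7e-06 and 5.9e-07). Its relative Adamts6 had 4.25 and 4.35 CPM with DMSO, 4.94 and 4.33 with BML-260 and 6.16 and 4.73 with ISO at 1 day, then 6.87 and 6.96 with DMSO and 4.44 and 3.87 with BML-260 at 3 days. The 1-day groups overlapped (0.10 ± 0.18, adjusted p = 0.75), and at 3 days Adamts6 fell by 0.74 ± 0.16 (adjusted p = 0.00076).

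Adamts7 and Adamts12 are both known to cleave cartilage oligomeric matrix protein, and Adamts12 was called at both times. Adamts12 had 25.1 and 21.7 CPM with DMSO, 15.6 and 17.2 with BML-260 and 22.6 and 20.7 with ISO at 1 day, then 23.9 and 25.0 with DMSO and 19.6 and 18 with BML-260 at 3 days, and fell by 0.51 ± 0.09 (adjusted p = 0.00032) and 0.38 ± 0.09 (adjusted p = 0.0015). Adamts7 had 13.3 and 15.2 CPM with DMSO, 12 and 13.4 with BML-260 and 15.3 and 14.8 with ISO at 1 day, then 18.5 and 19.5 with DMSO and 11.4 and 11.3 with BML-260 at 3 days. It was not called at 1 day (-0.17, interval -0.38 to 0.05) and fell by 0.75 ± 0.10 at 3 days (adjusted p = 1.4e-06). Adamts16, which lay at or under 1.08 CPM in every library, had 0.582 and 0.376 CPM with DMSO, 0.353 and 0.106 with BML-260 and 0.957 and 0.955 with ISO at 1 day, then 0.966 and 1.08 with DMSO and 0.329 and 0.151 with BML-260 at 3 days. Its 3-day fall of 2.08 ± 0.50 (adjusted p = 0.0017) was not called without replicate 2 of BML-260 (-1.62, adjusted p = 0.053).

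The ADAMTS-like proteins share the matrix-binding repeats of the family and have no proteinase domain. Adamtsl4, which binds fibrillin-1 and holds the lens in place, had 7.28 and 7.52 CPM with DMSO, 4.41 and 4.12 with BML-260 and 10 and 9.84 with ISO at 1 day, then 10.9 and 12.2 with DMSO and 7.62 and 6.94 with BML-260 at 3 days. It fell by 0.80 ± 0.15 (adjusted p = 0.00035) and 0.66 ± 0.12 (adjusted p = 0.00011). Adamtsl3 had 10.2 and 9.45 CPM with DMSO, 5.35 and 5.86 with BML-260 and 12.6 and 9.65 with ISO at 1 day, then 12.7 and 14.1 with DMSO and 7.24 and 5.49 with BML-260 at 3 days, and fell by 0.80 ± 0.16 (adjusted p = 0.00053) and 1.08 ± 0.14 (adjusted p = 1e-06). Adamtsl5, another fibrillin-binding member and the one of highest level per kilobase in its family, had 11.6 and 13.6 CPM with DMSO, 9.34 and 10 with BML-260 and 11.6 and 11.9 with ISO at 1 day, then 10.1 and 12.4 with DMSO and 11.2 and 9.51 with BML-260 at 3 days. It fell by 0.38 ± 0.13 at 1 day (adjusted p = 0.035) and was not called at 3 days (-0.12 ± 0.12). The 1-day call was lost with DESeq2 (adjusted p = 0.12) and without replicate 1 (-0.33, adjusted p = 0.17) or 2 of BML-260 (-0.43, adjusted p = 0.076) or replicate 2 of DMSO (-0.26, adjusted p = 0.35). Adamtsl1 lay below 1 CPM and was not called.

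The BML-260 comparisons at 1 and 3 days use different libraries. Of the 19 members that fell at 1 day 18 (94.7%) also fell at 3 days, and these were 78.3% of the 23 that fell at 3 days. Over all genes the same shares were 64.8% of the 1311 that fell at 1 day and 30.6% of the 2782 that fell at 3 days. Adamtsl5 fell at 1 day only, and Adamts6, Adamts7, Adamts16, Mmp9 and Mmp11 were called lower at 3 days only, while 0 members were called in opposite directions. The test of the difference between the effects called 9.52% of the tested members, near the 8.44% called over all genes (3.93% higher and 4.51% lower). It called 4 members, 1 with a higher and 3 with a lower effect at 3 days than at 1 day. They were Mmp11 (-0.65 ± 0.12, adjusted p = 0.00096), Adamts7 (-0.58 ± 0.14, adjusted p = 0.012), Adamts6 (-0.84 ± 0.24, adjusted p = 0.028) and Adam15 (0.28 ± 0.08, adjusted p = 0.026). The next by p was Adamts5, at -0.24 ± 0.09 (adjusted p = 0.087). For the other members called at one time only, the difference was not called, at adjusted p = 0.51 for Adamts16, 0.17 for Mmp9 and 0.40 for Adamtsl5. Mmp11 kept its call without each of the 8 libraries in turn. Adam15 lost its call without replicate 2 of DMSO at either time or without any of the 4 BML-260 libraries (0.20 to 0.29, adjusted p 0.053 to 0.19). Adamts6 lost its call without any of the 4 DMSO libraries, replicate 1 of BML-260 at 1 day or replicate 2 at 3 days (-0.74 to -0.85, adjusted p 0.063 to 0.11). Adamts7 lost its call without replicate 2 of BML-260 or replicate 1 of DMSO at 1 day or replicate 2 of DMSO at 3 days (-0.49 to -0.51, adjusted p 0.057 to 0.072), and with DESeq2 (adjusted p = 0.062).

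**Figure D5:**
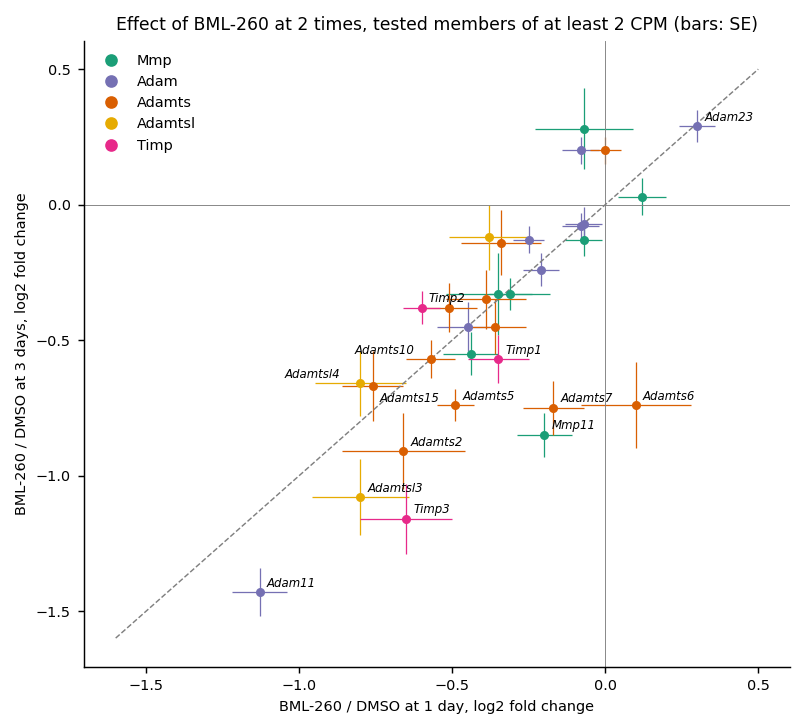
Log2 fold change with BML-260 at 1 day (x axis) and at 3 days (y axis) for the 32 tested members with a mean of at least 2 CPM, coloured by family, with bars of 1 SE and a dashed line of equal effect. Most points lie below 0 on both axes, and Mmp11, Adamts6 and Adamts7 lie below the line, at -0.85, -0.74 and -0.75 at 3 days.

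With ISO more members were higher than lower when set against DMSO of its listed day. Of 42 tested members 16 rose and 5 fell, a called share of 50% where 41.7% of all genes were called (21.4% higher and 20.3% lower). All 3 Timp genes rose, by 0.88 ± 0.09 (Timp1, adjusted p = 5.5e-09), 0.38 ± 0.06 (Timp2, adjusted p = 4.8e-06) and 0.98 ± 0.12 (Timp3, adjusted p = 2.6e-07). Among the proteinases Adamts2 rose by 1.44 ± 0.15, Mmp11 by 1.13 ± 0.08, Mmp2 by 0.76 ± 0.08 and Adam11 by 0.53 ± 0.08, and smaller rises were called for Adamts14 (0.46), Adamtsl4 (0.42), Adamts1 (0.30), Adamts5 (0.29), Mmp28 (0.28), Adam23 (0.25), Mmp14 (0.17) and Adam9 (0.15). Mmp9 rose by 2.38 ± 0.72 from 0.175 and 0.0537 CPM. Adamts15 fell by 1.5 ± 0.11, Adam1a by 2.39 ± 0.51, Adamts9 by 0.45 ± 0.10, Adam12 by 0.38 ± 0.06 and Mmp19 by 0.32 ± 0.06. The ISO and DMSO libraries of Mmp14 overlapped, and its rise was not called without replicate 1 of DMSO (0.10, adjusted p = 0.35) or of ISO (0.06, adjusted p = 0.56), with DESeq2 (adjusted p = 0.079) or with upper-quartile scaling (adjusted p = 0.15), and it was 0.28 without replicate 2 of ISO. The rise of Adam9 was not called without replicate 2 of DMSO (0.12, adjusted p = 0.098), replicate 1 of ISO (0.14, adjusted p = 0.063) or with upper-quartile scaling (adjusted p = 0.11), that of Mmp9 not without replicate 2 of DMSO or of ISO (1.76 and 2.04, adjusted p = 0.13 and 0.12), and that of Adamtsl4 not with DESeq2 (adjusted p = 0.054).

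Set against DMSO at 3 days instead, 7 members were called with ISO, 3 higher and 4 lower, where 19.9% of all genes were called (10.6% higher and 9.24% lower). Adam11 (0.21, adjusted p = 0.044), Adam23 (0.17, adjusted p = 0.037) and Adamts1 (0.19, adjusted p = 0.0072) were higher. Adam12 (-0.19, adjusted p = 0.027), Adam1a (-2.10, adjusted p = 0.0057), Adamts7 (-0.34, adjusted p = 0.012) and Mmp11 (-0.71, adjusted p = 2.4e-07) were lower. Against these controls the 3 Timp genes were not called, at 0.22 for Timp1 (adjusted p = 0.054), -0.10 for Timp2 (adjusted p = 0.19) and 0.19 for Timp3 (adjusted p = 0.24), and neither were Mmp2 (0.09), Adamts2 (0.11) or Adamts15 (-0.25, adjusted p = 0.16).

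In DMSO alone most members that changed rose between 1 and 3 days. Of 42 tested members 20 rose and 3 fell, a called share of 54.8% where 34.9% of all genes were called (18.1% higher and 16.8% lower). By smallest p these were Mmp11 (1.84 ± 0.08, adjusted p = 4.5e-15), Adamts15, which fell (-1.25 ± 0.11, adjusted p = 9.7e-10), Timp2 (0.49 ± 0.06, adjusted p = 1.6e-07), Adamts2 (1.33 ± 0.15, adjusted p = 1.8e-07) and Mmp2 (0.67 ± 0.08, adjusted p = 3.8e-07). Mmp11 ranked 4th by p of all 15212 genes. Timp1 and Timp3 rose by 0.66 ± 0.09 and 0.80 ± 0.12, and the other 2 members that fell were Mmp19 (-0.24 ± 0.06) and Adam12 (-0.19 ± 0.06). The rises of Adam9 and Adamts16 lost their call whichever single DMSO library was left out. Those of Adam11, Adamts10, Adamts14, Adamtsl3, Mmp9, Mmp14 and Mmp23 each lost it without at least 1 of these libraries. Adam12 was not called without replicate 1 of DMSO at 1 day (-0.16, adjusted p = 0.11) or at 3 days (-0.13, adjusted p = 0.20). The comparisons of ISO with DMSO, of BML-260 with DMSO at 1 day and of DMSO over time all use the 2 DMSO libraries of 1 day. DMSO over time, BML-260 with DMSO at 3 days and ISO with DMSO at 3 days likewise share the 2 DMSO libraries of 3 days. High values in those libraries add both to a rise over time and to a fall with BML-260 at 3 days. The test of the difference between the BML-260 effects uses the DMSO libraries of both days. Values of these comparisons are therefore given side by side and not related to each other.

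BML-260 and ISO were also compared directly at their listed day. Of 42 members 20 were lower and 4 higher with BML-260, a called share of 57.1% where 44.4% of all genes were called (21.6% higher and 22.8% lower). All 3 Timp genes were lower, by -1.23 ± 0.09 (Timp1, adjusted p = 1.7e-11), -0.98 ± 0.06 (Timp2, adjusted p = 5.6e-13) and -1.63 ± 0.13 (Timp3, adjusted p = 1e-10) on the log2 scale. Adamts2 was lower by -2.10 ± 0.17, Adam11 by -1.67 ± 0.09, Mmp11 by -1.33 ± 0.08, Adamtsl4 by -1.22 ± 0.14 and Mmp2 by -1.20 ± 0.09. Adamts15 (0.74 ± 0.12), Adam1a (2.89 ± 0.48), Mmp19 (0.25 ± 0.06) and Adam12 (0.17 ± 0.06) were higher. The call of Mmp19 was lost without replicate 2 of ISO (0.19, adjusted p = 0.056), and that of Adam12 without replicate 1 or 2 of BML-260 (0.16 and 0.19, adjusted p = 0.090 and 0.061), without replicate 2 of ISO (0.10, adjusted p = 0.31) and with DESeq2 (adjusted p = 0.082). This comparison shares its libraries with the BML-260 and ISO comparisons of 1 day. With BML-260 at 3 days set against ISO, a comparison added after seeing the data, 16 members were lower and 0 higher, where 16.4% of all genes were called (7.30% higher and 9.13% lower). There Adamts15 was lower (-0.41, adjusted p = 0.038), and Adam1a (1.23, adjusted p = 0.18), Mmp19 (-0.05, adjusted p = 0.68) and Adam12 (-0.05, adjusted p = 0.67) were not called. All 3 Timp genes were lower there too, by -0.78 (Timp1), -0.27 (Timp2) and -1.34 (Timp3).

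Other genes of the system were read from lists kept apart from the members. Of 22 tested matrix proteins that these enzymes are known to cut, 20 fell with BML-260 at 1 day and 18 at 3 days. None rose (medians -0.45 and -0.41), where 8.62% and 18.3% of all tested genes fell. With ISO 17 rose and 3 fell, where 21.4% of all genes rose and 20.3% fell. In DMSO with time 19 rose and 2 fell, where 18.1% of all genes rose and 16.8% fell. Fibronectin (Fn1) fell by 0.77 ± 0.05 at both times (adjusted p = 7e-12 and 9.9e-13). Fibrillin-1 (Fbn1) fell by 0.76 ± 0.05 and 0.99 ± 0.05 (adjusted p = 1.7e-10 and 3.9e-14). Cartilage oligomeric matrix protein (Comp), the target of Adamts7 and Adamts12, fell by 1.51 ± 0.23 and 2.06 ± 0.30 (adjusted p = 2.7e-05 and 6e-06). Comp had group means of only 0.599 to 4.29 CPM and was not named for its p. Thbs1 (-0.48 ± 0.05 and -0.77 ± 0.05) and Ltbp2 (-0.55 ± 0.06 and -0.88 ± 0.06) had smaller p at both times. The fibrillar collagen chain gene Col1a1 fell by 0.53 ± 0.06 and 0.17 ± 0.06 (adjusted p = 2.5e-07 and 0.021). The called fibroblast markers given above fell with BML-260 and rose with ISO and with time. Of 8 tested smooth muscle and pericyte markers 6 fell with BML-260 at each time, where 8.62% and 18.3% of all genes fell. With ISO 3 rose and 3 fell, and in DMSO with time 2 rose and 1 fell, beside the shares of all genes given above. The part of either set of markers in these results was not tested.

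Of 7 tested activators of the proteinases, 3 fell at 1 day and 4 at 3 days, where 8.62% and 18.3% of all genes fell. Furin, which opens Mmp11, Mmp14, Mmp28 and the ADAM precursors, fell by 0.34 ± 0.07 (adjusted p = 0.00088) and 0.22 ± 0.07 (adjusted p = 0.012). Tissue plasminogen activator (Plat) fell by 0.60 ± 0.12 and 0.51 ± 0.10 (adjusted p = 0.00078 and 0.00019), the secreted serine proteinase gene Prss23 by 0.73 ± 0.15 and 0.81 ± 0.12 (adjusted p = 0.0013 and 9.2e-06), and Pcsk7, a relative of Furin, at 3 days only by 0.26 ± 0.08 (adjusted p = 0.0098). Among 7 inhibitors outside the Timp family 2 fell at both times, where 8.62% and 18.3% of all genes fell. Neither is an inhibitor of metalloproteinases: Cst3 (-0.30 and -0.37) blocks cysteine proteinases, and Pcolce (-0.47 and -0.39) enhances procollagen cleavage by Bmp1. Reck, a membrane-anchored inhibitor of several Mmp enzymes, was not called (-0.17 ± 0.18 and -0.25 ± 0.15).

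Bmp1, the procollagen C-proteinase, fell by 0.32 ± 0.05 and 0.23 ± 0.05 (adjusted p = 3.9e-05 and 0.00053). It stood in a list of 6 tested zinc proteinases, of which 2 fell at 1 day and 3 at 3 days. Of all tested genes 8.62% and 18.3% fell. The others of this list that fell were the endothelin-converting enzyme gene Ece1 (-0.28 ± 0.06 and -0.17 ± 0.05) and, at 3 days, Pappa (-1.12 ± 0.24). Pappa cuts insulin-like growth factor binding proteins. Of 22 tested partners and surface substrates of the sheddases 5 were called at 1 day, all lower, and 9 at 3 days, 6 lower and 3 higher, which is near the 17.9% and 35.5% called over all genes. The adhesion molecule gene Cdh2 fell by 0.37 ± 0.09 and 0.65 ± 0.09 (adjusted p = 0.0042 and 2.9e-06) and the proteoglycan gene Sdc1 by 0.31 ± 0.06 and 0.24 ± 0.06 (adjusted p = 0.00032 and 0.0018). The amyloid precursor gene App was not called at 1 day (0.05 ± 0.04) and rose by 0.24 ± 0.04 at 3 days (adjusted p = 6.8e-05), and the Notch ligand gene Jag1 fell by 0.28 ± 0.09 and 0.42 ± 0.08 (adjusted p = 0.026 and 0.00019).

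In the authors' deposited tables of BML-260 and DMSO, 12 members are listed at 1 day, 11 with a negative fold change, and 21 at 3 days, 18 with a negative one. The direction of all genes in the authors' deposited tables was not counted. The member counts from them, here and below, are also not set beside the number of all genes listed. They cannot show whether members are over-represented there, which was not tested. For the comparisons of BML-260 with DMSO, edgeR called 17.9% of all tested genes at 1 day and 35.5% at 3 days. Those shares come from a different test and are no background for the authors' tables. The authors' deposited table gives Adam11 a log2 fold change of -0.87 at 1 day and -1.27 at 3 days. In the authors' deposited table that sets all BML-260 libraries against ISO, Adam11 ranks 2nd by p with a log2 fold change of -1.45. That authors' deposited table lists 17 members by unadjusted p, and 9 of them have an adjusted p of 0.09 to 0.47. The authors' deposited table of all 8 BML-260 and DMSO libraries lists 11 members, 10 with a positive and 1 with a negative value. Its signs run opposite to the deposited counts, with a positive value for Adam11, which was lower with BML-260, and -0.30 for Adam23, which was higher.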

How the data were processed

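The authors deposited a table of raw counts per gene symbol for all 10 libraries and 6 tables of genes past a threshold, whose columns, per the file headers, are counts, log2 fold changes and each p-value before and after adjustment. The submitters' processing notes name bcl2fastq 2.17.1.14, TopHat2 2.1.1, bedtools, DESeq2 and the builds mm9 and mm10. The sources used here do not give the counting rule, strandedness or annotation.

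Libraries were grouped by their titles. Counts were tested with edgeR 4.0.16 in R 4.3.3: TMM factors, filterByExpr by group (minimum count 10, minimum total 15), all 10 libraries with 1 mean per group (5 residual degrees of freedom), and adjustment by Benjamini-Hochberg over 15212 genes. SE was derived from the test, as the size of the log2 fold change over the root of F. The procedure was run on counts simulated with the spread estimated from these libraries. Changes were added there only to genes of at least 10 CPM, so that run does not cover members of lower level. CPM used TMM-scaled library sizes, and levels per kilobase used merged GENCODE M21 exons (GRCm38). The mean chi-square per gene within groups was 1.92 to 3.09, where counting error alone would give 1.

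Members and lists were chosen with earlier results of these data known. Named members are the tested Timp genes, the 28 of smallest p called with BML-260 or ISO and the highest per kilobase in each family. Also named are the 5 of smallest p over time and between times, and up to 4 genes per other list. The genes named from other lists are not always those of smallest p. Alternatives were DESeq2 1.42.0, RLE or upper-quartile factors, no filter, only the groups compared, a replicate block, leaving out each library and, for ISO, DMSO at 3 days. BML-260 at 3 days against ISO was added after seeing the data. Same-numbered libraries did not deviate together (r -0.0344 to 0.0577 in 10 pairs of groups).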

Additional observations from a re-analysis of the deposited data

Results flagged for a closer look

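The BML-260 effect on the log2 scale differed between 3 days and 1 day, by edgeR's test of the difference itself, for 4 members. They are 9.52% of those tested, near the 8.44% called over all genes. The effect at 3 days minus that at 1 day was -0.65 for Mmp11 (adjusted p = 0.00096), -0.58 for Adamts7 (adjusted p = 0.012), -0.84 for Adamts6 (adjusted p = 0.028) and 0.28 for Adam15 (adjusted p = 0.026). Mmp11 kept its call without each library in turn, and Adamts7, Adamts6 and Adam15 each lost it without some single libraries.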

How the results depend on the processing

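Direction was compared only where a value was called in the reported or the alternative setting. The number of members called was 20 with BML-260 at 1 day, 26 at 3 days, 4 for the difference between times, 21 with ISO, 24 for BML-260 against ISO and 23 over time in DMSO. With DESeq2 the counts were 14, 22, 2, 18, 23 and 19. A member to which DESeq2 gave no adjusted p counted as not called there, and its direction was not compared. Among the members called for the difference between times, Adamts7 was not called with DESeq2 and another had no adjusted p. Some members called at 3 days, with ISO and over time also had none. Leaving out single libraries gave 14 to 18, 22 to 24, 1 to 3, 20 to 21, 20 to 23 and 15 to 19. No member called in the reported setting changed sign under any alternative except where libraries of 3 days replaced those of 1 day. With ISO set against DMSO at 3 days, 7 members were called in place of 21, and the log2 values turned for Adamts5 (-0.12), Adamts7 (-0.34, not called at 1 day), Adamtsl4 (-0.21), Mmp11 (-0.71), Mmp14 (-0.10), Mmp28 (-0.04), Mmp9 (-0.18) and Timp2 (-0.10). With BML-260 at 3 days set against ISO, chosen after seeing the data, 16 members were called in place of 24, and the log2 values turned for Adamts15 (-0.41), Adam12 (-0.05), Mmp19 (-0.05) and Adamts1 (0). The cause was not tested.

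Whether equal replicate numbers pair the libraries is not said, and the low correlations between same-numbered libraries cannot settle it. A fit with the replicate block called 21, 26, 4, 22, 24 and 23 members in the same order of comparisons, so the block moved no count by more than 1. With few counts, members below 1 CPM such as Mmp9 and Adamts16 have intervals wide enough to hide changes of the size seen in the others.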
